A study of Mus musculus with 2 samples.

Results

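The genes that license replication origins and run the replication fork were examined for allelic differences in nuclear RNA. They were 41 genes chosen by symbol for their role, from the subunits of the origin recognition complex to the proteins that join Okazaki fragments, and each matched 1 of the 48550 rows of the deposited table. The RNA came from F121-6 mouse embryonic stem (ES) cells, a female hybrid line with 1 chromosome set of 129 origin and 1 of castaneus (cas) origin, grown with serum and LIF on mitomycin-C-inactivated mouse embryonic fibroblasts. The samples were 2 libraries of total nuclear RNA, and the reads of each gene were split by allele, so that 129 was compared with cas within each library. The series asks how the alleles of such hybrids differ in replication timing, genome organization and expression. All values come from 1 line. Whether the libraries stem from separate cultures is not stated. The limma p-values below thus measure only the spread between these libraries, pooled over genes of like abundance, and that spread may be technical. The p-values of the exact tests rest on counting error only.

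Origins are licensed in G1 phase, when the origin recognition complex (ORC), Cdc6 and Cdt1 load the ring-shaped MCM2-7 helicase onto DNA in an inactive double form. In S phase the helicase is activated with Cdc45 and the GINS complex, polymerase alpha with primase makes primers, polymerases epsilon and delta extend the leading and lagging strands, and RFC loads the sliding clamp PCNA. RPA covers the exposed single strands. Mouse ES cells divide quickly with a short G1 phase, and many of these genes are known targets of E2F transcription factors.

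The promoters of the MCM2-7 genes are shown because E2F sites are known from them and the complex held members called toward each allele. ORC, the polymerases with primase, and RFC also held members called toward each allele. Sequences are from RefSeq (GRCm38.p6, the same build as mm10) and end at the annotated start. Promoters were found there for 32 of the 41 genes, and Mcm2, Mcm3, Mcm5 and Mcm6 are the MCM2-7 genes with exactly 1 promoter listed. Capitals mark the E2F motif (TTTCCCGC, TTTCGCGC, TTTGCCGC or TTTGGCGC) and the CCAAT box, on either strand. The letters are those of the reference strain and not of the 129 or cas allele.
Mcm5, chr8:75109259-75109508, plus strand: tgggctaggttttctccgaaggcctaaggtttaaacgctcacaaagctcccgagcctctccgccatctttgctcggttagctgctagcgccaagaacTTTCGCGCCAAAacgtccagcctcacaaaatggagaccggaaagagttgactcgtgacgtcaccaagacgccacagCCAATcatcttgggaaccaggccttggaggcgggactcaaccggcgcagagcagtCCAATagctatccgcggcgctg
Mcm6, chr1:128359706-128359955, minus strand: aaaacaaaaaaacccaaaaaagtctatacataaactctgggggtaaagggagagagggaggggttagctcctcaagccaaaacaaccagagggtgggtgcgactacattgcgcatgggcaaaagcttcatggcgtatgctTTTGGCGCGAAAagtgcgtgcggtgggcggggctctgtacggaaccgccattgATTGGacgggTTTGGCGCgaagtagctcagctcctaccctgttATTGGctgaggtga
Mcm3, chr1:20820313-20820562, minus strand: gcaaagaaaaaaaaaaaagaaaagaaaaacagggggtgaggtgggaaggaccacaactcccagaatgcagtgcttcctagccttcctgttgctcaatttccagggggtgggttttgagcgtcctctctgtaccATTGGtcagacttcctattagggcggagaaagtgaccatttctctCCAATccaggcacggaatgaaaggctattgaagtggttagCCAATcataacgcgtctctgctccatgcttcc
Mcm2, chr6:88898781-88899030, minus strand: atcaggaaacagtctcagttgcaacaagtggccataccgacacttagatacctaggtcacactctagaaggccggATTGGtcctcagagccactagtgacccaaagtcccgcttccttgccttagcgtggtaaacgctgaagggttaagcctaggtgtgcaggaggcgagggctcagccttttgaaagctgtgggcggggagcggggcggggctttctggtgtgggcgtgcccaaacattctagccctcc
Mcm5 held 2 E2F matches that overlap each other, Mcm6 held 3, of which a pair overlap, and Mcm2 and Mcm3 held none. No E2F match overlapped a CCAAT box in these sequences. Of the 32 genes, 9 had an E2F match within 250 bases before a start (22.5% of their 40 promoters), against 1.9% of all 32851 promoters, and 20 of the 40 promoters (50.0%) held CCAAT, against 33.8% of all. The cell cycle homology motif TTTGAA was in 10.0% of their promoters, against 16.0% of all. The 9 genes with an E2F match were Cdc6, Gins3, Mcm5, Mcm6, Mcm7, Orc1, Orc3, Pola1 and Rfc3. Their log2(129/cas) ratios ran from -0.68 for Gins3, which had only 61 reads and no call, to 0.90 for Rfc3. A match describes letters and not a bound site.

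Library 1 held 28523744 allele-assigned reads and library 2 held 31402765. Over all genes, 53.6% and 54.2% of reads were from 129. Ratios are log2(129/cas) of reads scaled so that the typical gene has a ratio near 0, which corresponds to a 129 share of 55.1% in library 1 and 56.2% in library 2. A gene called toward cas thus gave a smaller 129 share than the typical gene, and it may still have given more reads from 129 than from cas. Whether reads of each allele align equally well to the reference genome was not tested. The scaling removes only a shift shared by all genes, so a ratio may also hold such a difference. Of the ES cell markers, 9 of 10 were tested, with Esrrb at 39780 and 38740 reads, while Sox2 was listed at 0. Of 20 fibroblast markers, 17 were tested, 13 were called toward 129 and none toward cas, with a median log2 ratio of 3.45. Reads of the 20 markers made up 0.191% of each library. Most of these reads were from Fn1 (42205 and 43423), whose ratio was only 0.16. Lum and Twist1 were listed at 0. Whether Sox2, Lum and Twist1 lie inside other genes was not examined. Rows inside other genes were nearly all at 0 (below), so a 0 need not mean absence. The part of feeder RNA in the results below was not tested, and in such bulk RNA fewer cells of a type and less RNA per cell cannot be told apart.

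Most replication genes differed little between the alleles. Of the 41 genes, 39 were tested, having reached 20 reads over both alleles in every library. By limma with Benjamini-Hochberg adjustment over all 15509 tested genes, 8 were called toward 129, 14 toward cas and 17 were not called, at an adjusted p under 0.05. The 22 calls are 56.4% of the tested members, against 43.9% of all tested genes (21.9% toward 129 and 22% toward cas). Calls depend on depth. Of the 19 members between the quartiles of the members' reads (1642.5 to 9878 reads over both libraries), 9 were called, and of all 4328 tested genes in that range 54.4% were called. The members' median ratio was -0.10, against -0.003 for all tested genes, and the median size of a called ratio was 0.32 for members, against 0.77 for all called genes. These sizes were not matched for depth. The median SE was 0.09 for members and 0.21 for all tested genes, and with a larger SE only larger ratios are called. Of the 22 called members, 18 differed by less than 1.5-fold, and Rpa3 alone exceeded 2-fold. The direction was the same in each library for all 22, which is no independent check. The split of directions rested on the scaling. With 1 shared library size for both alleles, 19 members were called toward 129 and 1 toward cas, since the median of all genes then moved by 0.32, and with the deposited column totals 12 and 8 were called. By an exact binomial test in each library, two-sided and against those totals, 18 members were called in the same direction in both, against 45.3% of all tested genes. Prim2, Rfc2, Rfc3 (toward 129) and Rpa3 (toward cas) were called in the same direction under all 8 alternative settings that used both libraries. Without library as a block, those 4 and Mcm10 were the only members of the 22 that kept their call.

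**Figure D1:**
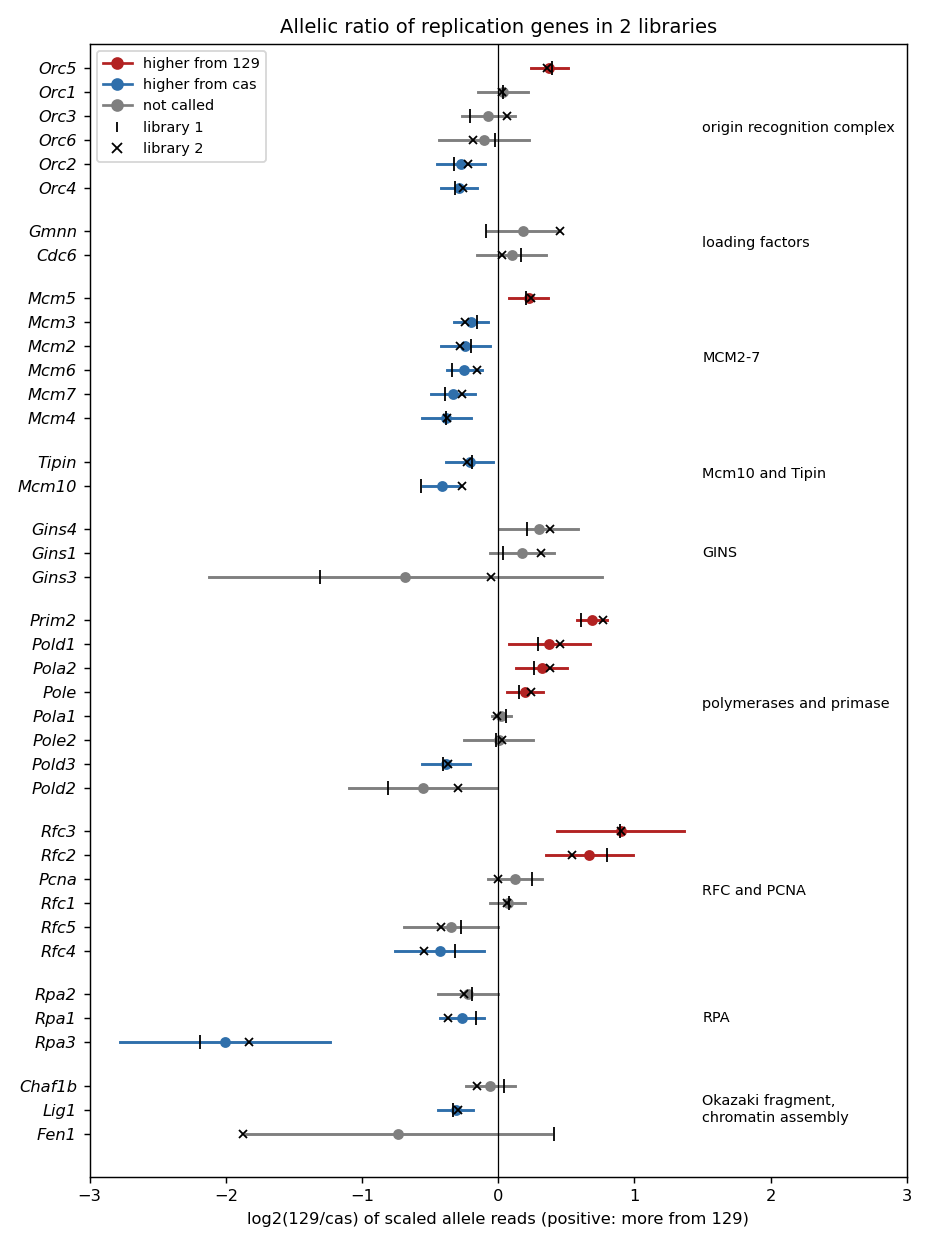
The log2(129/cas) ratio (horizontal axis, scaled allele reads) of the 39 tested replication genes, grouped by complex. Dots with lines are the fitted ratio with its 95% interval, coloured by call, and the bar and cross marks are library 1 and library 2. Rpa3 lies far toward cas at -2.01, while the other called members lie between -0.43 and 0.90, and with 1 shared library size 8 of the 14 called toward cas would lie above 0.

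ORC, the complex that marks origins, had members on each side. Orc5 (chromosome 5, 22486485 to 22550429, mm10) gave 2563 and 4759 reads from 129, against 1585 and 2896 from cas. Its 129 share was 62.0% ± 0.27 (SD, n = 2 libraries), above the typical share in each library, and its ratio was 0.38 (SE 0.07, adjusted p = 3.4e-07, limma). Library 2 held far more Orc5 reads than library 1, at nearly the same share. Orc4 gave 3004 and 3207 reads from 129, against 3052 and 2986 from cas, a ratio of -0.29 (SE 0.07, adjusted p = 6.6e-05, limma). Orc2 gave 1184 and 1652 reads from 129, against 1205 and 1503 from cas, a ratio of -0.27 (SE 0.09, adjusted p = 0.0063, limma). Orc4 and Orc2 had near-equal raw reads of the alleles, and with 1 shared library size their ratios turned positive (0.04 and 0.06). Orc1, the subunit with ATPase activity that cells regulate through the cycle, gave 1336 and 1389 reads from 129, against 1061 and 1059 from cas, with a ratio of 0.03 (95% interval -0.15 to 0.22) and no call. Orc3 had -0.21 in library 1 and 0.06 in library 2, and Orc6, with the fewest reads of the complex (643 and 581), had -0.10 (95% interval -0.44 to 0.23), both without a call. The median of the complex was -0.09.

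Of the factors that act with ORC in loading, Cdc6 and Gmnn were tested and neither was called. Cdc6, the loading ATPase, gave 649 and 636 reads from 129, against 469 and 486 from cas, a ratio of 0.10 (95% interval -0.15 to 0.35). Gmnn encodes geminin, the inhibitor of Cdt1. It gave 527 and 690 reads from 129, against 457 and 392 from cas, so that its 129 share was 53.6% in library 1 and 63.8% in library 2. These shares differed beyond counting error (Fisher's exact test, two-sided, adjusted p = 9.1e-05 over all tested genes), and the ratio of 0.18 was not called (adjusted p = 0.28, limma).

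Cdt1, which brings the helicase to ORC, and Gins2 were listed at 0 in all 4 columns. Each lies wholly inside the annotated span of Gm20388 (chromosome 8, 119910841 to 124345722), Cdt1 on its strand and Gins2 on the other. All 183 rows inside Gm20388, these genes among them, were at 0 (73 of the same strand and 110 of the opposite strand), while Gm20388 itself held 3231 and 3787 reads from 129, against 2449 and 2609 from cas. Over the whole table, 98.6% of 348 protein-coding rows inside a gene of the same strand were at 0, as were 96.4% of 724 inside a gene of the opposite strand only, against 15.2% of 19950 inside no other gene. A row at 0 therefore says nothing of the level of Cdt1 or Gins2. Reads of genes overlapping on opposite strands cannot be told apart where the counting did not use strand, and the sources used here do not state this. Among the tested members, 9 overlap a gene on the opposite strand that had reads: Fen1, Mcm7, Orc1, Orc2, Orc4, Orc6, Rfc2, Rfc4 and Rfc5.

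**Figure D2:**
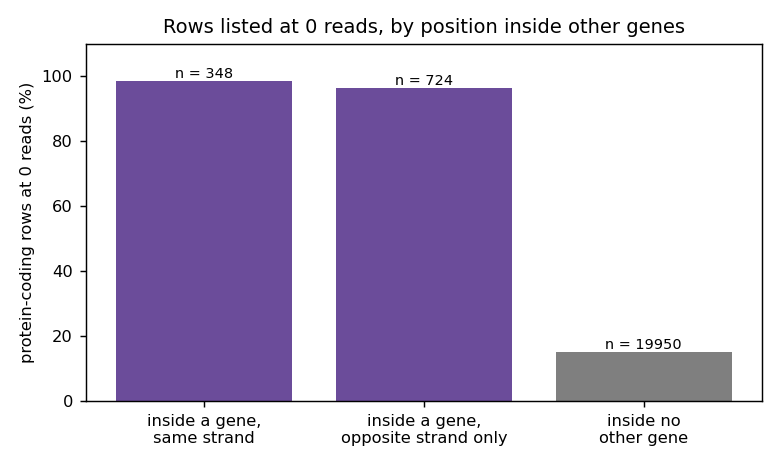
Share of protein-coding rows listed at 0 reads in all columns (vertical axis, percent), by whether the annotated span lies inside another gene. Rows inside a gene of the same strand (98.6%) or of the opposite strand only (96.4%) were nearly all at 0, against 15.2% of rows inside no other gene.

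Every member of MCM2-7, the motor of the replicative helicase, was called by limma with the main scaling. The members held 4847 to 13750 reads over both libraries, and calls depend on depth. Of all tested genes 43.9% were called, and of those with 1642.5 to 9878 reads 54.4%. With the deposited column totals Mcm2 and Mcm3 lost their calls (adjusted p = 0.231 and 0.222, limma), and with the exact binomial test in each library Mcm6 did too. Without library as a block no member of the complex was called. Mcm5 went toward 129 and the other members toward cas, although with 1 shared library size Mcm2, Mcm3 and Mcm6 were on the 129 side of 0. Mcm5 (chromosome 8, 75109569 to 75128439) gave 2808 and 2554 reads from 129, against 1983 and 1682 from cas, a 129 share of 59.5% ± 1.2 and a ratio of 0.22 (SE 0.07, adjusted p = 0.008, limma). Its 2 libraries stood above the typical share. Mcm4 (chromosome 16, 15623897 to 15637400) gave 1241 and 1188 reads from 129, against 1319 and 1201 from cas, a share of 49.1% ± 0.88 and a ratio of -0.38 (SE 0.09, adjusted p = 0.00017, limma). Mcm7 gave 1522 and 1676 reads from 129, against 1627 and 1573 from cas, a ratio of -0.33 (SE 0.08, adjusted p = 0.00032, limma). Mcm4 gave fewer reads from 129 than from cas in each library, whereas Mcm7 did so in library 1 only. Mcm6 gave 3432 and 3633 reads from 129, against 3525 and 3160 from cas, with -0.34 in library 1 and -0.16 in library 2 (ratio -0.25, SE 0.06, adjusted p = 0.00044, limma). Its shares of 49.3% and 53.5% differed between the libraries (Fisher's exact test, adjusted p = 4.9e-05). Mcm2 gave 1295 and 1202 reads from 129, against 1212 and 1138 from cas (ratio -0.24, SE 0.09, adjusted p = 0.024, limma). Mcm3 gave 3711 and 3385 from 129, against 3360 and 3117 from cas (ratio -0.20, SE 0.06, adjusted p = 0.0064, limma). Mcm2 and Mcm3 thus gave more reads from 129 in each library, but fewer than the typical gene did.

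The 95% interval of Mcm5 (0.08 to 0.37) lay apart from those of the other MCM2-7 members, the highest of which reached -0.06 for Mcm2. This gap does not depend on the scaling, which moves all genes alike, and the difference itself was not tested. With 1 shared library size Mcm2, Mcm3 and Mcm6 turned positive (0.09, 0.13 and 0.08), Mcm4 and Mcm7 had -0.05 and -0.002, and Mcm5 had 0.55.

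**Figure D3:**
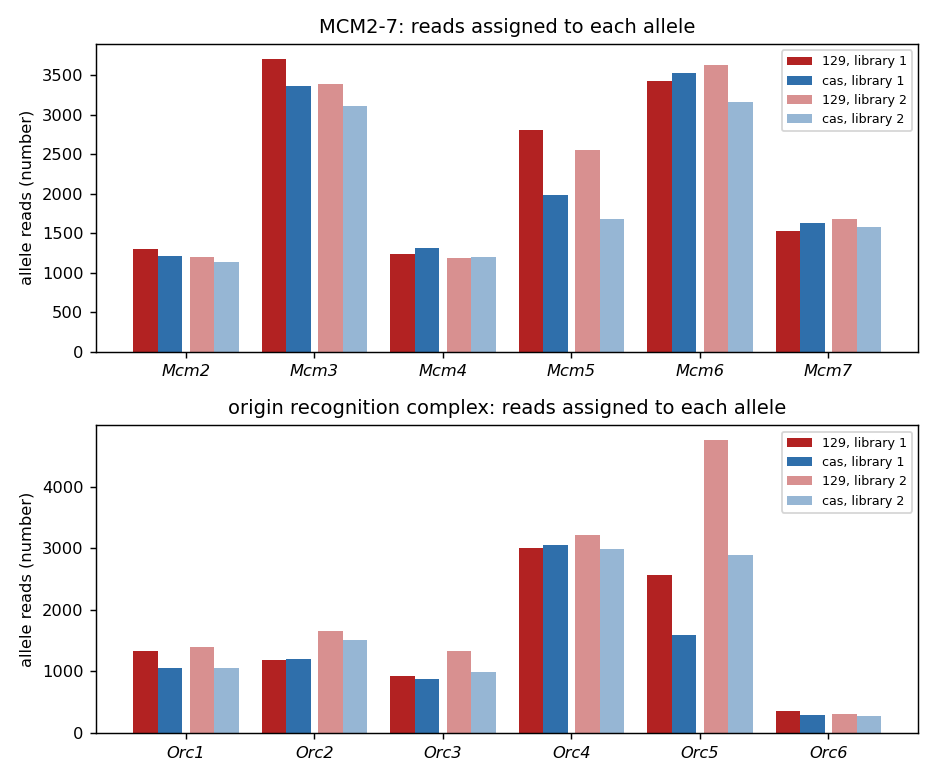
Reads assigned to each allele (vertical axis, number of reads) for the MCM2-7 genes (upper panel) and ORC genes (lower panel), with 129 left of cas for library 1 (dark) and library 2 (light). Mcm5 and Orc5 show the widest gaps, with 2808 against 1983 and 4759 against 2896 reads, and Mcm4 gave slightly fewer reads from 129 in each library.

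Mcm10 and Tipin act on the assembled helicase. Mcm10, a factor needed to activate it, gave 2220 and 3013 reads from 129, against 2674 and 2822 from cas. It thus gave fewer reads from 129 in library 1 and more in library 2, and the shares of 45.4% and 51.6% differed (Fisher's exact test, adjusted p = 1.8e-08). Both were under the typical share, and the ratio was -0.42 (SE 0.07, adjusted p = 1.9e-08, limma). Tipin, the partner of Timeless in fork protection, gave 1271 and 1723 reads from 129, against 1181 and 1570 from cas. Its ratio of -0.21 (SE 0.09, adjusted p = 0.04, limma) was close to the threshold. It lost its call under 6 of the 8 alternative settings: both filters (50 reads per library, and none), the deposited column totals, 1 shared library size (where it was 0.12), no block and the binomial test.

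No tested GINS gene was called with the main scaling. With the deposited column totals Gins1 and Gins4 were called toward 129 (adjusted p = 0.049 and 0.02, limma). Gins4 gave 442 and 569 reads from 129, against 310 and 340 from cas, a share of 60.7% ± 2.7 and a ratio of 0.30 (SE 0.15, adjusted p = 0.093, limma). Gins1 gave 646 and 909 reads from 129, against 513 and 568 from cas, with 0.03 in library 1 and 0.32 in library 2. Gins3 yielded only 7 and 21 reads from 129, against 16 and 17 from cas, and with its 95% interval of -2.13 to 0.76 even a 2-fold difference was not detectable at this depth.

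The polymerases and primase held 4 genes called toward 129, 1 toward cas and 3 not called. Prim2, the large primase subunit (chromosome 1, 33453810 to 33669795), gave 6679 and 8032 reads from 129, against 3572 and 3678 from cas. Its share of 66.9% ± 2.4 gave a ratio of 0.69 (SE 0.06, adjusted p = 1.2e-32, limma), a 1.61-fold excess from 129 relative to the typical gene. The share was higher in library 2 than in library 1 (Fisher's exact test, adjusted p = 4.9e-06), and it was above the typical share in each. Pola2, the accessory subunit of polymerase alpha, gave 1207 and 1524 reads from 129, against 820 and 914 from cas (ratio 0.32, SE 0.10, adjusted p = 0.0035, limma). Pola1, the catalytic subunit of polymerase alpha, is X-linked (93304767 to 93632155) and had the most reads of all members, 26811 and 29780 from 129, against 20977 and 23366 from cas. Its share of 56.1% ± 0.049 was close to the typical share, and the ratio of 0.02 (95% interval -0.05 to 0.09) was not called. With the deposited column totals Pola1 was called toward 129 (ratio 0.13, adjusted p = 0.00029, limma). Among the 555 tested genes of the X chromosome the median ratio was -0.07, with 94 called toward 129 and 125 toward cas (39.5% in all).

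Of the leading-strand polymerase, the catalytic gene Pole gave 3192 and 3512 reads from 129, against 2339 and 2311 from cas (ratio 0.20, SE 0.07, adjusted p = 0.012, limma). Its partner Pole2 gave 529 and 709 reads from 129, against 435 and 543 from cas, with a ratio of 0.005 (95% interval -0.25 to 0.26). The subunits of polymerase delta differed in direction. Pold1, the catalytic subunit, gave 468 and 540 reads from 129, against 310 and 306 from cas (ratio 0.38, SE 0.15, adjusted p = 0.031, limma). Pold3, an accessory subunit, gave 1233 and 1273 reads from 129, against 1326 and 1278 from cas (ratio -0.38, SE 0.09, adjusted p = 0.00011, limma). The intervals of Pold1 (0.08 to 0.67) and Pold3 (-0.56 to -0.21) did not overlap. Pold2 gave 78 and 140 reads from 129, against 112 and 134 from cas, with -0.81 in library 1 and -0.29 in library 2 and no call (adjusted p = 0.097, limma).

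The genes of the clamp loader RFC ran from -0.43 for Rfc4 to 0.90 for Rfc3. Rfc3 (chromosome 5, 151642756 to 151651242) gave 248 and 230 reads from 129, against 108 and 95 from cas. Its share of 70.2% ± 0.78 was the highest of all members, with a ratio of 0.90 (SE 0.24, adjusted p = 0.00059, limma). Rfc2 (chromosome 5, 134581366 to 134601805) gave 425 and 501 reads from 129, against 198 and 268 from cas, a ratio of 0.67 (SE 0.16, adjusted p = 0.0002, limma). Lat2, which overlaps Rfc2 by 1784 bp on the opposite strand, was also called toward 129 (ratio 1.15). Rfc4 gave 245 and 398 reads from 129, against 249 and 452 from cas (ratio -0.43, SE 0.17, adjusted p = 0.024, limma). Its overlap of 194 bp is with Eif4a2, a translation factor gene with a ratio of -0.49. Rfc5 gave 265 and 295 reads from 129, against 261 and 308 from cas, without a call (ratio -0.35, adjusted p = 0.1, limma). Rfc1, the large subunit, gave 3340 and 4226 reads from 129, against 2578 and 3152 from cas, with a ratio of 0.07 (95% interval -0.06 to 0.20). PCNA is the clamp that RFC loads. Its gene Pcna yielded 1288 and 1086 reads from 129, against 882 and 847 from cas, and its ratio of 0.12 (95% interval -0.07 to 0.32) was not called.

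RPA, the single-strand binding complex, held the member with the largest allelic difference. Rpa3, its smallest subunit (chromosome 6, 8255936 to 8259173), gave 32 and 29 reads from 129, against 123 and 84 from cas. Its 129 share was 20.6% in library 1 (exact 95% interval 14.6 to 27.9) and 25.7% in library 2 (17.9 to 34.7), intervals that cover counting error only. The ratio was -2.01 (SE 0.39, adjusted p = 2e-06, limma), or 4.03-fold more from cas relative to the typical gene. With a pseudocount of 1 CPM it was -1.62. Rpa1, the large subunit, gave 1534 and 1894 reads from 129, against 1399 and 1903 from cas (ratio -0.27, SE 0.08, adjusted p = 0.0041, limma). Rpa2 gave 796 and 754 reads from 129, against 741 and 699 from cas, with a ratio of -0.22 and no call (adjusted p = 0.1, limma). The ratios of Rpa1 and Rpa2 turned positive with 1 shared library size (0.06 and 0.11), and that of Rpa3 did not (-1.69).

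Of the genes that finish Okazaki fragments and assemble chromatin, Lig1 was called. Lig1, the replicative DNA ligase, gave 3211 and 3377 reads from 129, against 3286 and 3221 from cas (ratio -0.31, SE 0.06, adjusted p = 8.9e-06, limma), which became 0.02 with 1 shared library size. Fen1, the flap endonuclease, gave 38 and 12 reads from 129, against 23 and 38 from cas. Its libraries pointed in opposite directions (0.41 and -1.87, Fisher's exact test adjusted p = 0.001), and no call was made. Chaf1b, a subunit of the histone chaperone CAF-1, gave 1367 and 1484 reads from 129, against 1080 and 1288 from cas, with a ratio of -0.06 (95% interval -0.23 to 0.12).

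The 129 share differed between the libraries beyond counting error for 9 of the 39 tested members, against 21.4% of all tested genes (Fisher's exact test, two-sided, adjusted p under 0.05 over all tested genes). They were Fen1, Gins1, Gmnn, Mcm6, Mcm7, Mcm10, Orc3, Pole and Prim2. The SEs rest on a spread pooled over genes of like abundance and do not show such differences of a single gene.

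Some replication genes start close to a gene on the opposite strand. A start of such a gene lay within 1 kb of that of 19 members, and 15 of these pairs had a tested partner. Both genes were called in the same direction in 2 pairs and in opposite directions in 3. These counts were not compared with those of all genes. Mcm4 lies 466 bp from Prkdc, which encodes the catalytic subunit of DNA-dependent protein kinase. Prkdc gave 8257 and 9062 reads from 129, against 9150 and 9746 from cas, and its ratio of -0.46 (SE 0.05, adjusted p = 1.6e-20, limma) had the sign of that of Mcm4 (-0.38). The noncoding 6030443J06Rik, 3 bp from Orc5, had a ratio of 1.84 (SE 0.18), against 0.38 for Orc5.

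Pole and Pxmp2, a peroxisomal membrane protein gene 120 bp away, went opposite ways. Pxmp2 gave 104 and 132 reads from 129, against 219 and 333 from cas, a ratio of -1.52 (SE 0.22, adjusted p = 7e-11, limma), while Pole had 0.20. Rpa1 had -0.27 and its partner Smyd4 0.35 (SE 0.11, adjusted p = 0.004, limma). Orc2 had -0.27 and the noncoding Gm15834 0.89 (SE 0.26, adjusted p = 0.0027, limma). In none of these 3 pairs do the annotated spans overlap. Of the other 10 pairs, only the replication gene was called in 3 (Mcm7, Orc4 and Rpa3), only the partner in 2 (Abhd12 beside Gins1 and Vps35 beside Orc6) and neither in 5.

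**Figure D4:**
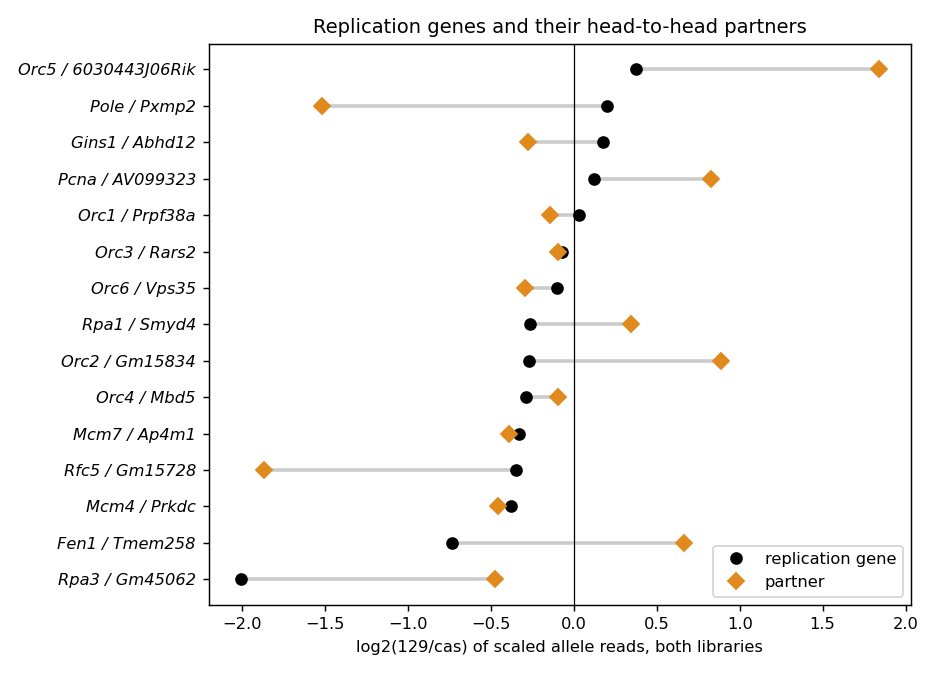
The log2(129/cas) ratio (horizontal axis, scaled allele reads) of 15 replication genes (circles) and of their tested head-to-head partners (diamonds), with starts within 1 kb on opposite strands. Mcm4 and Prkdc lie close together at -0.38 and -0.46, and Pole and Pxmp2 lie apart at 0.20 and -1.52.

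The ratios were also set beside those of tested genes starting within 500 kb, which share the chromosomal region. Across the 39 tested members, the Pearson r between a member's ratio and its neighbours' median was 0.70 and Spearman's rho 0.53. Without Rpa3 they were 0.43 and 0.49 over 38 members. These are descriptions across genes, which share the libraries and the scaling, and some neighbours overlap a member. Of the 22 called members, 14 had the sign of their neighbours' median. Neither this count nor the correlations were compared with those of all genes, so they are not shown to be particular to replication genes. Around Rpa3, Mios (a regulator of TORC1, 50.0 kb away) gave 188 and 215 reads from 129, against 701 and 1006 from cas (ratio -2.38, SE 0.15). C1galt1, a glycosyltransferase gene 414.3 kb away, gave 846 and 933 reads from 129, against 3028 and 2757 from cas (ratio -2.03, SE 0.08). Col28a1 had -1.37 and Gm45062 -0.48 without a call. These neighbours of Rpa3 were named after their values were seen. Mcm5, by contrast, had 5 tested neighbours with a median of -0.03, none called toward 129, and Prim2 had 6 with a median of 0.001, 2 called toward 129 and 1 toward cas. By chromosome, the 7 members on chromosome 5 held 4 of the 8 calls toward 129 (Orc5, Pole, Rfc2 and Rfc3), and 1 call toward cas (Mcm7). Of all 1043 tested genes on that chromosome 44.5% were called in either direction, with a median ratio of 0.06. The members' calls toward 129 were not compared with the share of that chromosome's genes called toward 129.

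**Figure D5:**
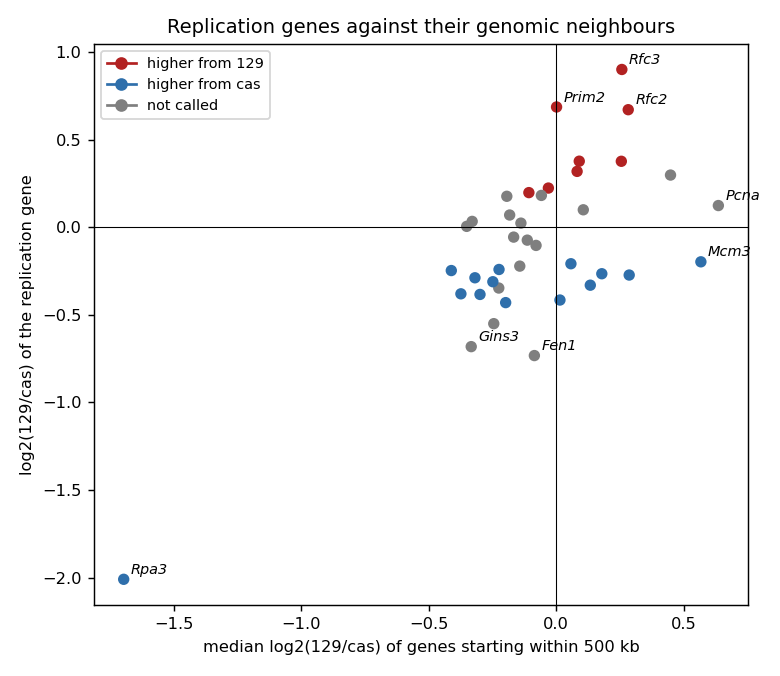
Each tested replication gene's log2(129/cas) ratio (vertical axis) against the median ratio of tested genes starting within 500 kb (horizontal axis), coloured by call. Rpa3 stands apart at the lower left with -2.01 against a neighbour median of -1.70, and Rfc3 and Rfc2 lie at the upper right.

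Of a list of 44 other genes of DNA replication, 40 were tested, of which 8 were called toward 129, 10 toward cas and 22 were not called, with a median ratio of 0.01. The called share of 45.0% was near the 43.9% of all tested genes. Of 12 genes of helicase loading and activation, 3 were called toward 129 and 4 toward cas. Mtbp, a partner of Ticrr in origin firing, gave 2095 and 2582 reads from 129, against 966 and 1223 from cas (ratio 0.77, SE 0.08), while Ticrr itself gave 2397 and 2716, against 3505 and 4256 (ratio -0.93, SE 0.07). Mcm9, an MCM family helicase of recombination and repair, had 0.88 (SE 0.09), and Asf1a, listed at 0, lies inside its span. Lrwd1, which binds ORC, had 0.70 (SE 0.16), and Recql4, a helicase of replication start, had -0.96 (SE 0.35), with its libraries apart at -0.38 and -1.54.

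Of the other polymerase subunits, Prim1, the catalytic primase subunit, gave 504 and 567 reads from 129, against 260 and 314 from cas. Its ratio of 0.57 (SE 0.15, adjusted p = 0.0006, limma) was called in the direction of its partner Prim2 (0.69), although the genes lie on different chromosomes. Pole4 had 0.72 (SE 0.07). Rrm2, a subunit of ribonucleotide reductase, had -0.78 (SE 0.12), whereas Rrm1 had -0.12 without a call. The histone chaperone gene Asf1b had -0.97 (SE 0.28), and Chaf1a, the partner of Chaf1b, had 0.01 without a call. Of the genes of fork protection, Chtf18 was called toward 129 (ratio 0.43, SE 0.16), and Timeless, the partner of Tipin, had 0.18 without a call, its libraries being at -0.17 and 0.53. Of 5 genes of licensing control, 3 were called toward cas and 0 toward 129. Skp2 was among those called, with -0.44 (SE 0.08).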

How the data were processed

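Strand-specific libraries of nuclear RNA were read as 100 bp pairs, and earlier libraries were sequenced again and merged, per the labels' protocols. Bowtie2 and mm10 are named in the submitters' processing notes. How reads were counted, by which SNPs and with which strand setting is not stated in those sources. The columns deposited by the authors carry the word counts per the file headers, but hold RPKM. Value times length in kb summed to 999994.2 and 999996.2 in the 129 columns and 999966.7 and 999972.2 in the cas columns. The main test was therefore limma on a log scale. Each product was divided by a step fitted in its column, starting from the smallest nonzero product, taken as 1 read. This gave whole reads within 0.01 read for 100.0% of values. The deposited lengths did not match annotated gene spans (Pearson r of logs -0.02), so levels of different genes were not compared. Names were matched to GENCODE M21 for 95.6% of rows.

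limma 3.58.1 (R 4.3.3) was fitted on log2(CPM + 0.1) with library as a block, which rests on both allele columns coming from the same RNA, trended variances, trimmed mean of M values scaling and at least 20 reads per library, leaving out the Y chromosome. Fold changes on this scale understate those of genes with few reads. Code was tested on simulated data. Exact tests used SciPy 1.17.1. Members and lists were chosen with earlier results of these data known. All members were named by complex. Of the pathway list, called genes with a ratio of at least 0.5 in size and some partners of members were named. Chtf18 and Skp2, called below that size, were named besides.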

Additional observations from a re-analysis of the deposited data

How the results depend on the processing

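Calls depended most on the library block and on the scaling of the allele columns. With 1 shared library size, the members called were 19 toward 129 and 1 toward cas (all genes 6505 and 1492), against 8 and 14 as reported (all genes 3402 and 3407), and the members' median was 0.22. Of the 22 called members, 9 then kept call and direction. Calls gained, all toward 129, were those of Cdc6, Chaf1b, Gins1, Gins4, Gmnn, Orc1, Orc3, Pcna, Pola1, Pole2 and Rfc1. Ratios that changed sign were those of Mcm2 (0.087), Mcm3 (0.13), Mcm6 (0.081), Orc2 (0.055), Orc3 (0.25), Orc4 (0.040), Orc6 (0.22), Tipin (0.12), Rpa1 (0.063), Rpa2 (0.11), Lig1 (0.017) and Chaf1b (0.27). With the deposited column totals, 12 and 8 were called, Mcm2, Mcm3, Orc2, Rfc4, Rpa1 and Tipin lost their calls, the median was -0.0011, and Orc3 (0.029) and Chaf1b (0.047) changed sign, also for the exact binomial test in each library, which uses the same totals and called 11 and 7 (Mcm6 lost as well). The column totals added calls of Gins1, Gins4, Pola1 and Rfc1 toward 129, and the binomial test added the same except Gins1. Without library as a block (no replicate block), the fit called 3 and 2 members (5 of the 22 calls kept, 17 lost), and 2150 and 1804 of all genes. A pseudocount of 1 CPM changed no member's call, but the ratio of Rpa3 was then -1.62, against -2.01 as reported. Robust moderation changed no value, since the prior degrees of freedom were infinite. Filters at 50 reads and at 1 read lost Tipin. With 1 library left out there is no spread to test. The members' median then ranged from -0.16 to -0.092, and no called member changed sign. An exact binomial test in a single library, added after seeing the data, called 14 to 15 members toward 129 and 10 to 13 toward cas, and of all genes 5471 to 6076 and 3657 to 4197. A count model planned as an alternative (edgeR) was not run, because the deposited values are RPKM. The exact tests did use the reads recovered from them. Depth limits Gins3, Fen1, Rpa3 and Pold2, whose SEs were 0.74, 0.57, 0.39 and 0.28.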
